A study of Homo sapiens with 6 samples.

Results

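The genes described here are the constitutive proteasome genes, taken as all protein-coding genes whose symbol is PSM followed by a letter from A to G and a number, without the immunoproteasome subunits PSMB8, PSMB9 and PSMB10. The rule found 44 genes among the 38126 in the deposited tables, and it used no expression value. They were 8 genes of the alpha ring, 7 of the beta ring, 9 of the base, 8 of the lid, 3 chaperones of base assembly, 4 chaperones of core assembly and 5 that activate or inhibit the core. PSMB11 was not analysed here. PSMA8, known as an alpha subunit of the testis, was listed at 0 in all 6 libraries. The other 43 passed the filter on low values and were tested.

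The proteasome is the multi-protein protease that degrades ubiquitin-tagged proteins in the cytosol and nucleus of every eukaryotic cell. Its core particle is a barrel of stacked rings in which the outer alpha rings gate the entry and the inner beta rings carry the cutting sites. A regulatory particle, made of a base with a ring of ATPases and a lid that removes ubiquitin, binds, unfolds and feeds in the substrate, while other activators open the gate without ubiquitin. In many mammalian cells the genes of the core and regulatory particles are induced together when proteasome activity is lost, through the transcription factor NFE2L1. Proximal tubule cells, which reabsorb and degrade filtered protein, rely mainly on lysosomes for that protein and on the proteasome for their own.

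RNA-seq was done on HK-2, an immortalised line of human proximal tubular epithelial cells, in 3 libraries exposed to phosphoramidon for 24 h and 3 untreated libraries. Phosphoramidon inhibits zinc metallopeptidases such as neprilysin. The labels state no dose. They give the untreated libraries a title with the letters CSE, which they do not explain, and all cells came from the same line, grown in serum-free keratinocyte medium. Whether replicates were separate cultures is not stated. The p-values below therefore rest on how far these 6 libraries scatter, and that scatter may be technical only.

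The total of assigned fragments, worked out from the FPKM values, was 18690100, 24919568 and 19563641 in phosphoramidon replicates 1 to 3, against 23493829, 24308790 and 24815378 in untreated replicates 1 to 3. FPKM is a level per length of gene, corrected for the depth of the library. A fold change in this text is log2 of phosphoramidon over untreated after each FPKM was divided by its library's scaling factor, while single FPKM values are as deposited. Of the markers listed for renal epithelium and proximal tubule, 4 of 12 averaged at least 1 FPKM (KRT8, KRT18, PAX8 and MME). LRP2, a defining receptor of the proximal tubule, reached at most 0.00635 FPKM in phosphoramidon libraries and 0.00528 FPKM in untreated libraries. The 12 markers summed to 156 to 161 FPKM in phosphoramidon libraries, against 176 to 191 FPKM in untreated libraries, and 5 of the 8 that were tested fell. PAX8 went the other way as deposited (log2 fold change 0.15, limma adjusted p = 0.0138) but did not pass after scaling (0.08, limma adjusted p = 0.204). The 7 fibroblast markers, of which 2 averaged at least 1 FPKM (LUM and COL1A1), summed to 23.5 to 24.9 FPKM in phosphoramidon libraries, against 60.9 to 65.7 FPKM in untreated libraries. All 4 that were tested fell, while COL3A1 was listed at 0 throughout. Of all tested genes, 17.9% fell by the test described below. Endothelial markers (4 in the files) and leukocyte markers (5 in the files) summed to at most 0.134 and 0.817 FPKM with phosphoramidon and to at most 0.121 and 0.874 FPKM without, with EMCN listed at 0 throughout. The part of these shifts in the results below was not tested. In bulk RNA, fewer cells of a type and less RNA per cell cannot be told apart.

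The constitutive proteasome genes did not move as a block, and their changes were small. Of the 43 tested, 6 rose (PSMA6, PSME4, PSME1, PSMG1, PSMD3 and PSMD1) and 6 fell (PSMB5, PSMC4, PSMB6, PSMD5, PSMB7 and PSMD7) by limma with a Benjamini-Hochberg adjusted p below 0.05. That is 27.9% of the members, where 33.6% of all 16175 tested genes passed, 15.6% higher and 17.9% lower. The median log2 fold change of the members was -0.05, against 0.01 over all tested genes, and their median size of change without sign was 0.09, against 0.19. Among the 3733 tested genes with a mean of at least 10 FPKM, up to that of the highest member, the median size was 0.15, and 1839 passed (49.3%), a larger share than among the members. Fold changes of the 31 members that did not pass lay between -0.24 and 0.14, and their 95% intervals between -0.46 and 0.33. Summed over all 44 genes as deposited, the level was 1379 ± 26.2 FPKM with phosphoramidon and 1371 ± 14.8 FPKM without (SD, n = 3 each). That difference was smaller than the deposited spread in the phosphoramidon group. After scaling, as used for the fold changes, the order turned, with means of 1345 with phosphoramidon and 1405 without. No spread was worked out for the scaled sums, so these sums do not show that the total was unchanged.

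The split of calls depended on the scaling between libraries. On the values as deposited, with no scaling factors, 9 members were called higher and 1 lower, where 22.5% of all genes were called higher and 13.4% lower. The median of the members was then 0.02, and that of all genes 0.07. With scaled values, the groups did not overlap in 15 members, 6 higher and 9 lower, where 48.1% of all tested genes had groups apart. PSMC5, PSMB3 and PSMD12 were the members that were apart, with lower values in the phosphoramidon libraries, and yet did not pass.

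**Figure D1:**
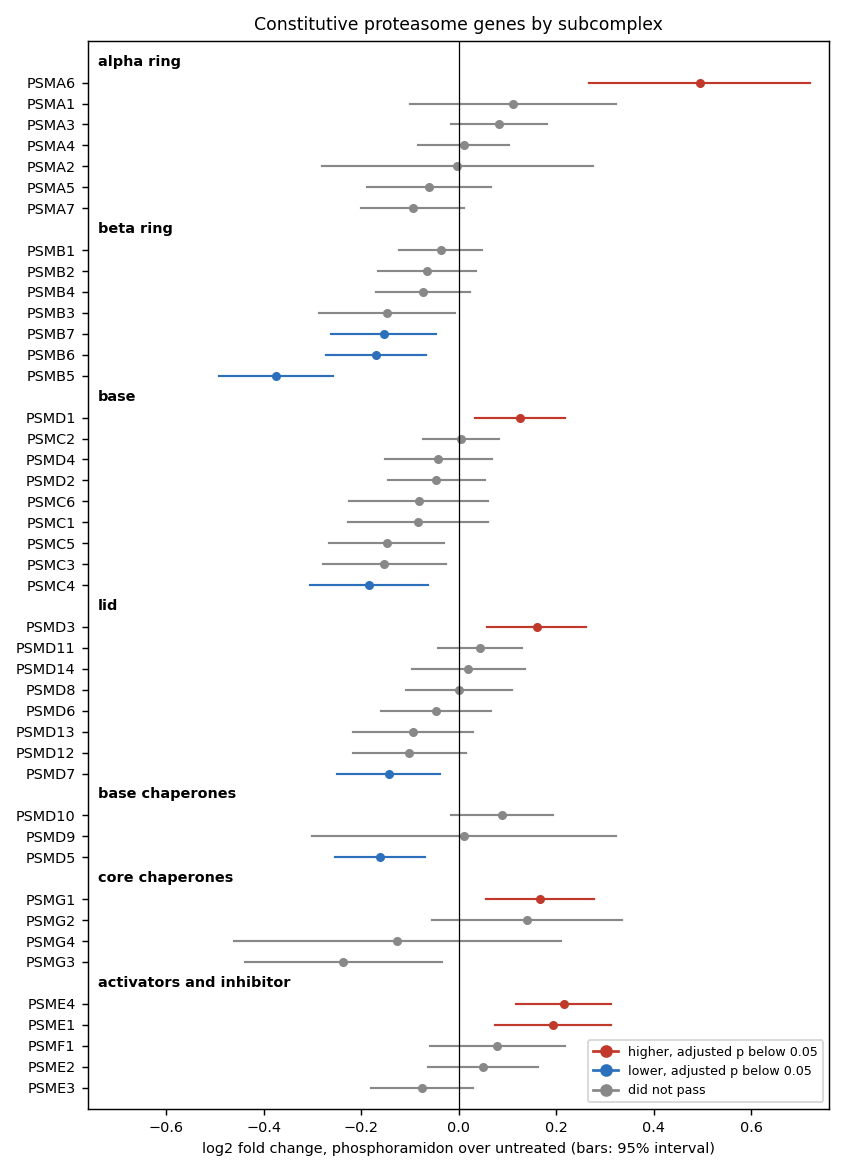
Log2 fold change of each of the 43 tested members (horizontal axis, phosphoramidon over untreated), grouped by subcomplex and ordered from high to low within each. Points are limma estimates, bars their 95% intervals, red members rose, blue members fell and grey ones did not pass; PSMA6 lies farthest to the right at 0.49 and PSMB5 farthest to the left at -0.37.

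The promoters of the members were searched for 3 short motifs that are known in proteasome genes. In mammals NFE2L1 acts on these genes through antioxidant response elements, for which the letters TGACNNNGC were searched on both strands. In a window of 300 bases, from 250 before the transcription start to 50 after it, 12 of the 38 members with a RefSeq promoter entry held a match, or 31.6%, where 13.3% of all 35116 promoters of that length did. CCAAT, the letters bound by NF-Y, was present in 17 members (44.7%, against 34.6% of all promoters), and CCGGAAG, a core of ETS sites, in 13 (34.2%, against 10.3%). None of the 14 matches to TGACNNNGC in member promoters overlapped a match to the other motifs. The comparison was with all promoters, not with promoters matched to the members in expression or base content. A match is a string of letters, not a site shown to be bound. No promoter entry was used for PSMD4, PSMG3, PSMB1, PSMB7, PSMB6 and PSMA7. The 12 members with a match were PSMB3, PSMC4, PSMD1, PSMD12, PSMD3, PSMD5, PSMD9, PSME1, PSME2, PSME4, PSMG1 and PSMG2. Of these, 5 rose, 2 fell and 5 did not pass, where 15.6% of all tested genes rose and 17.9% fell. Of the 26 without a match, 1 rose (PSMA6), 2 fell (PSMB5 and PSMD7), 22 did not pass and PSMA8 was not tested. These counts were drawn up with the fold changes known and carry no test.

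The promoters below belong to the members with the lowest p among those that hold the letters, 3 that rose and 1 that fell (PSMD5). Sequences are from RefSeq (GRCh38.p14), 5′ to 3′ on the strand of the gene, and capitals mark TGACNNNGC or its reverse complement. The regions are chr2:53970944-53971243 on the minus strand for PSME4, chr9:120842873-120843172 on the minus strand for PSMD5, chr14:24135944-24136243 on the plus strand for PSME1 and chr17:39980557-39980856 on the plus strand for PSMD3.
PSME4: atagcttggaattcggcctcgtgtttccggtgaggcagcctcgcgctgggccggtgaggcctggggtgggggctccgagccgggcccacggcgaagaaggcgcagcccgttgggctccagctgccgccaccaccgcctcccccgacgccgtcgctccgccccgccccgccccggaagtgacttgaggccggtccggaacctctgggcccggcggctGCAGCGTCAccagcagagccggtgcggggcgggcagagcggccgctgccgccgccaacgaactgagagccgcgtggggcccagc
PSMD5: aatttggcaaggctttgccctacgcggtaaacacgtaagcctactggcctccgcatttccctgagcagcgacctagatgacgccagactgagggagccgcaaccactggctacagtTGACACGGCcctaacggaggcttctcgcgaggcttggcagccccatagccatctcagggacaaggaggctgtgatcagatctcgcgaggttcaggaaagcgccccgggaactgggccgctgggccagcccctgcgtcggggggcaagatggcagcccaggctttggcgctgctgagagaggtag
PSME1: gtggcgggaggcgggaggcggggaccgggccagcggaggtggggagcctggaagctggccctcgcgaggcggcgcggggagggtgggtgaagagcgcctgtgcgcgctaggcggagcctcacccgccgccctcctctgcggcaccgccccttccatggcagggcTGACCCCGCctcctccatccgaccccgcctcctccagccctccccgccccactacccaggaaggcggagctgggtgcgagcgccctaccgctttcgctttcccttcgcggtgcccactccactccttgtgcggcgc
PSMD3: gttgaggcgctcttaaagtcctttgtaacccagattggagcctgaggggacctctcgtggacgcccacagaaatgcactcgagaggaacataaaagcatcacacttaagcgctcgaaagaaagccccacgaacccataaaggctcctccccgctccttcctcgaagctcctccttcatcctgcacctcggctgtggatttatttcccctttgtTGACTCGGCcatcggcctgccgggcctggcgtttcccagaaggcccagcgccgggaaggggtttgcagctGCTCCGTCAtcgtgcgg
The match began at base -34 from the start in PSME4, at -134 in PSMD5 and at -86 in PSME1, while PSMD3 held 2 matches, at -37 and 33. PSMD3, of the lid, thus has a match on each side of the start.

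In the alpha ring, 1 of 7 tested genes rose and the other 6 did not pass, where 15.6% of all tested genes rose. The level of PSMA6 (GRCh38 ENSG00000100902, chr14:35278633-35317493, plus strand), a structural alpha subunit, was 1.68, 1.64 and 1.84 FPKM in phosphoramidon libraries, against 1.07, 1.21 and 1.11 FPKM in untreated libraries. Every phosphoramidon library lay above every untreated one, with a log2 fold change of 0.49 (SE 0.10, limma adjusted p = 0.00573), the highest among the members. It rests on few fragments, 164 to 266 per library. PSMA6 is also one of 4 members whose coding bases lie mostly under another gene on the same strand in GENCODE 29: 70.4% of those of PSMA6 are shared with AL121594.1, 88.6% of those of PSMA1 with AC018523.2, 97.1% of those of PSMA2 with AC010132.3 and 58.7% of those of PSMD9 with AC069503.2 or WDR66. These 4 averaged 1.43, 4.37, 1.12 and 0.914 FPKM over the 6 libraries, below every other expressed alpha, beta, base or lid member. How the counting treated fragments on shared bases is not given in the sources used here, so their levels and the change of PSMA6 are uncertain.

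None of the other tested alpha subunits passed in the reported fit. The 95% interval was wide for PSMA1, at -0.10 to 0.32, and for PSMA2, at -0.28 to 0.27. PSMA7 was the most abundant member of all, with 115, 110.0 and 123 FPKM in phosphoramidon libraries, against 114, 123 and 117 FPKM in untreated libraries. Its groups overlapped, and its log2 fold change was -0.10 (SE 0.05, limma adjusted p = 0.149). PSMA3 was at 0.08 (adjusted p = 0.177) and passed only on the values as deposited (0.15, adjusted p = 0.0288). Log2 fold changes were 0.11 for PSMA1, 0.01 for PSMA4, whose counterpart in yeast helps to close the gate of the core, 0.00 for PSMA2 and -0.06 for PSMA5, none of which passed.

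In the beta ring, 3 of 7 genes fell, all of them catalytic, where 17.9% of all tested genes fell. The 4 structural subunits did not pass, though the estimate of PSMB3 (-0.15) was close to that of PSMB7 (-0.15). PSMB6 and PSMB7 each lost their call in 4 of the 6 fits that left out 1 library. PSMB5 (GRCh38 ENSG00000100804, chr14:23016543-23035230, minus strand) encodes the subunit with chymotrypsin-like activity, the main target of proteasome inhibitor drugs. Its level was 60.2, 55.8 and 56.3 FPKM in phosphoramidon libraries, against 70.3, 75.2 and 67.4 FPKM in untreated libraries. All 3 phosphoramidon libraries lay below all 3 untreated ones, 57.4 ± 2.43 FPKM with phosphoramidon against 70.97 ± 3.90 FPKM without (SD, n = 3 each), and the log2 fold change was -0.37 (SE 0.05, limma adjusted p = 8.63e-04), with a 95% interval of -0.49 to -0.26. It was the lowest fold change among the members and passed in each of the 15 alternatives tried.

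PSMB6 (GRCh38 ENSG00000142507, chr17:4796144-4798503, plus strand), which carries the caspase-like activity, had 40.9, 39.4 and 39.2 FPKM in phosphoramidon libraries, against 43.3, 44.3 and 40.6 FPKM in untreated libraries. As deposited the groups overlapped, since phosphoramidon replicate 1 lay above untreated replicate 3. They were apart after scaling, with a log2 fold change of -0.17 (SE 0.04, limma adjusted p = 0.0198). PSMB7 (GRCh38 ENSG00000136930, chr9:124353466-124415444, minus strand), with trypsin-like activity, had 74.8, 68.3 and 73.3 FPKM in phosphoramidon libraries, against 78.1, 75.5 and 75.5 FPKM in untreated libraries. Its phosphoramidon libraries lay below its untreated ones by a small margin, and the log2 fold change was -0.15 (SE 0.05, limma adjusted p = 0.0354). On the values as deposited neither passed, with log2 fold changes of -0.10 (adjusted p = 0.0963) for PSMB6 and -0.08 (adjusted p = 0.148) for PSMB7. As deposited, the 3 catalytic genes summed to 169 ± 6.18 FPKM with phosphoramidon and 190.1 ± 5.87 FPKM without (SD, n = 3 each).

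Among the structural beta subunits, PSMB1 had 67.3, 68.6 and 67.4 FPKM in phosphoramidon libraries, against 65.5, 65.3 and 67.96 FPKM in untreated libraries. These values overlapped, at a log2 fold change of -0.04 (SE 0.04, limma adjusted p = 0.483) with a 95% interval of -0.12 to 0.05. The log2 fold changes of the other structural beta subunits were -0.07 for PSMB2, -0.07 for PSMB4 and -0.15 for PSMB3 (adjusted p = 0.0965), and none passed. PSMB3 passed with voom on recovered fragments (-0.15, adjusted p = 0.0263). All 7 beta genes thus had a negative estimate after scaling, while on the values as deposited 2 were positive and 5 negative.

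In the base, 1 of 9 genes rose and 1 fell, where 15.6% of all tested genes rose and 17.9% fell. PSMD1 (GRCh38 ENSG00000173692, chr2:231056864-231172827, plus strand), a large scaffold subunit, had 45.8, 46.9 and 45.8 FPKM in phosphoramidon libraries, against 38.5, 40.7 and 41.7 FPKM in untreated libraries. The groups were apart, and the log2 fold change was 0.13 (SE 0.04, limma adjusted p = 0.0413). PSMC4 (GRCh38 ENSG00000013275, chr19:39971005-39981441, plus strand), one of the ATPases that unfold the substrate, had 34.3, 32.5 and 34.8 FPKM in phosphoramidon libraries, against 38.96, 36.2 and 34.9 FPKM in untreated libraries. Phosphoramidon replicate 3 and untreated replicate 3 nearly met, the groups did not overlap, and the log2 fold change was -0.18 (SE 0.05, limma adjusted p = 0.0285); as deposited it did not pass (-0.11, adjusted p = 0.103). PSMD4, a receptor for ubiquitin chains, had 48.7, 45.8 and 47.6 FPKM in phosphoramidon libraries, against 48.1, 47.4 and 43.97 FPKM in untreated libraries. Its groups overlapped, with a log2 fold change of -0.04 (SE 0.05, limma adjusted p = 0.542) and a 95% interval of -0.15 to 0.07. The other scaffold, PSMD2, was at -0.05. The other ATPases were at 0.00 (PSMC2), -0.08 (PSMC6), -0.08 (PSMC1), -0.15 (PSMC5, adjusted p = 0.0565) and -0.15 (PSMC3, adjusted p = 0.0635), and none passed. PSMC3 passed without phosphoramidon replicate 1 (-0.20, adjusted p = 0.0186) and without untreated replicate 3 (-0.19, adjusted p = 0.0388), and PSMC5 without untreated replicate 3 (-0.18, adjusted p = 0.0469). With voom on recovered fragments both passed as lower (adjusted p = 0.0178 for PSMC3 and 0.0207 for PSMC5), as they did with TMM factors from all genes (adjusted p = 0.037 and 0.0404). PSMC1 shares 75.8% of its exon bases with NRDE2 on the other strand, PSMD7 30.7% with AC009120.2, PSMC5 19.5% with FTSJ3, PSMG2 16.7% with CEP76 or SPIRE1, PSMG4 14.99% with SLC22A23 or TUBB2B and PSMD1 10.8% with HTR2B. The use of strand is not stated, so fragments of these genes and their partners cannot be told apart on the shared bases.

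In the lid, 1 of 8 genes rose and 1 fell, beside shares of 15.6% and 17.9% over all tested genes. PSMD3 (GRCh38 ENSG00000108344, chr17:39980797-39997960, plus strand), a scaffold subunit of the lid, had 38.6, 37.2 and 38.9 FPKM in phosphoramidon libraries, against 33.9, 32.6 and 31.3 FPKM in untreated libraries. All phosphoramidon libraries were higher, with a log2 fold change of 0.16 (SE 0.04, limma adjusted p = 0.0246). PSMD7 (GRCh38 ENSG00000103035, chr16:74296775-74306288, plus strand), the inactive partner of the lid's deubiquitinase, had 20.8, 22.3 and 20.4 FPKM in phosphoramidon libraries, against 22.4, 22.1 and 22.2 FPKM in untreated libraries. Phosphoramidon replicate 2 lay within the untreated values as deposited; after scaling the groups were apart, with a log2 fold change of -0.14 (SE 0.05, limma adjusted p = 0.0417). On the values as deposited PSMD7 did not pass (-0.07, adjusted p = 0.207).

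The deubiquitinase itself, PSMD14, which removes ubiquitin from substrates before they enter, had 13.8, 14.2 and 15.4 FPKM in phosphoramidon libraries, against 12.9, 14.1 and 13.7 FPKM in untreated libraries. These overlapped, and the log2 fold change was 0.02 (SE 0.05, limma adjusted p = 0.801), with a 95% interval of -0.10 to 0.14. The other lid subunits lay between -0.10 (PSMD12) and 0.04 (PSMD11), with PSMD8 at 0.00, PSMD6 at -0.05 and PSMD13 at -0.09, and none passed. PSMD11 passed only on the values as deposited (0.11, adjusted p = 0.0323).

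The chaperones that help to assemble the base and then leave were PSMD5, PSMD9 and PSMD10. Of these 3, 1 fell, where 17.9% of all tested genes fell. PSMD5 (GRCh38 ENSG00000095261, chr9:120815496-120842984, minus strand), whose promoter is printed above, had 18.05, 18.4 and 17.6 FPKM in phosphoramidon libraries, against 19.2, 19.5 and 18.95 FPKM in untreated libraries. Its groups were apart, with a log2 fold change of -0.16 (SE 0.04, limma adjusted p = 0.0154); on the values as deposited it did not pass (-0.09, adjusted p = 0.0874). PSMD10, also known as gankyrin, had 19.2, 20.9 and 20.3 FPKM in phosphoramidon libraries, against 17.3, 18.1 and 18.6 FPKM in untreated libraries. Deposited values of PSMD10 were higher in all phosphoramidon libraries, but the log2 fold change after scaling was 0.09 (SE 0.05, limma adjusted p = 0.175), against 0.16 (adjusted p = 0.03) as deposited. PSMD9 stayed near or under 1 FPKM, at 0.01.

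Of the chaperones that assemble the alpha ring, 1 of 4 rose, where 15.6% of all tested genes did. PSMG1 (GRCh38 ENSG00000183527, chr21:39174769-39183851, minus strand), which works as a pair with PSMG2, had 9.89, 10.2 and 9.94 FPKM in phosphoramidon libraries, against 8.04, 8.93 and 8.52 FPKM in untreated libraries. The phosphoramidon libraries were all higher, and the log2 fold change was 0.17 (SE 0.05, limma adjusted p = 0.0294). Its partner PSMG2 was at 0.14 and did not pass (adjusted p = 0.243). PSMG3 had 5.90, 5.34 and 5.84 FPKM in phosphoramidon libraries, against 6.73, 7.01 and 5.55 FPKM in untreated libraries. Its untreated replicate 3 fell among the phosphoramidon values, and the log2 fold change of -0.24 (SE 0.09, limma adjusted p = 0.0704) had a wide 95% interval, -0.44 to -0.03. It passed without untreated replicate 3 (-0.34, adjusted p = 0.00821). PSMG4, the pair of PSMG3 and the least abundant expressed member at 0.644 FPKM, was at -0.13 (adjusted p = 0.548).

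Among the activators and the inhibitor, 2 of 5 genes rose, where 15.6% of all tested genes did. PSME4 (GRCh38 ENSG00000068878, chr2:53864067-53970840, minus strand) encodes a large single-chain activator found mainly in the nucleus. It had 12.1, 12.6 and 12.9 FPKM in phosphoramidon libraries, against 10.01, 10.7 and 10.1 FPKM in untreated libraries. All phosphoramidon libraries lay above all untreated ones, and the log2 fold change was 0.22 (SE 0.04, limma adjusted p = 0.00546), with a 95% interval of 0.12 to 0.31. PSME1 (GRCh38 ENSG00000092010, chr14:24136158-24138967, plus strand), which forms an interferon-inducible activator ring with PSME2, had 51.3, 50.5 and 49.3 FPKM in phosphoramidon libraries, against 43.3, 39.6 and 43.04 FPKM in untreated libraries. Here too the groups were apart, with a log2 fold change of 0.19 (SE 0.05, limma adjusted p = 0.0215). PSME2, its partner, was at 0.05 and did not pass (adjusted p = 0.476). PSME3, which forms a nuclear activator ring by itself, had 39.02, 37.8 and 38.2 FPKM in phosphoramidon libraries, against 40.1, 37.4 and 38.04 FPKM in untreated libraries. The values of PSME3 overlapped, at -0.08 (SE 0.05, limma adjusted p = 0.239). PSMF1, the inhibitor of the core particle, was at 0.08 (adjusted p = 0.356). As deposited, the 5 genes summed to 129 ± 2.02 FPKM with phosphoramidon and 116 ± 3.01 FPKM without (SD, n = 3 each). This sum was not scaled. Of the 5 genes, 2 had all phosphoramidon libraries higher after scaling, where 23.9% of all tested genes did. As deposited 4 did, but the share over all genes was not worked out on those values.

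**Figure D2:**
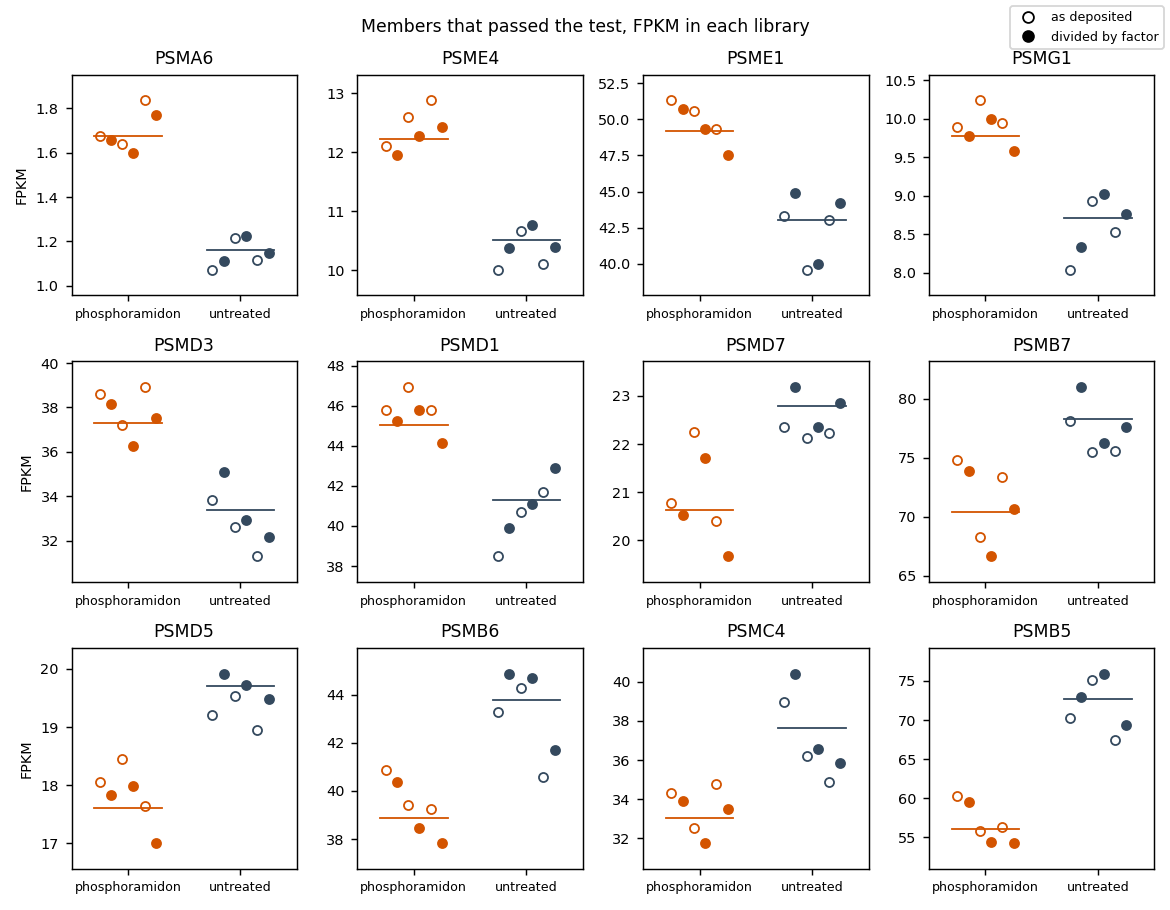
FPKM (vertical axes, each with its own range) of the 12 members that passed, in the 3 phosphoramidon and 3 untreated libraries. Open points are values as deposited, filled points are values divided by the scaling factor of the library and lines mark the mean of the scaled values; PSMB6 and PSMD7 overlap as deposited and are apart after scaling.

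Levels spread over a wide range among genes whose proteins sit in the same complex. Over the 6 libraries the order began with PSMA7 at 117 FPKM, PSMD2 at 107, PSMB3 at 91.97 and PSMB4 at 89.8 FPKM. The beta ring was the most even group, from 41.3 FPKM (PSMB6) to 91.97 FPKM (PSMB3). The alpha ring was the least even, from 1.12 FPKM (PSMA2) to 117 FPKM (PSMA7), and 3 of its 7 expressed genes are among the 4 that share most coding bases with another gene. Base genes lay between 10.1 FPKM (PSMC1) and 107 FPKM (PSMD2), and lid genes between 7.99 FPKM (PSMD6) and 35.4 FPKM (PSMD3). Chaperones of core assembly stayed under the level of PSMC1. FPKM depends on the gene length the authors used, and the whole-fragment steps of only 15 of the 44 members matched the GENCODE 29 exon length.

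**Figure D3:**
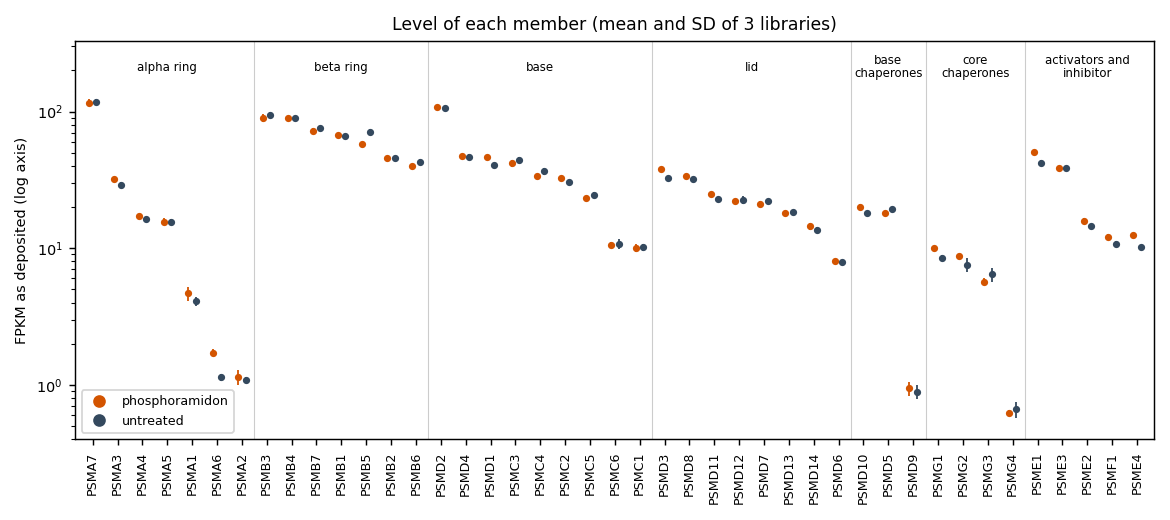
Level of each of the 43 expressed members as deposited FPKM (vertical log axis), as mean and SD of 3 libraries per group, by subcomplex and from high to low within it. The phosphoramidon and untreated points of a gene lie close together beside the range between genes, which runs from 0.644 FPKM for PSMG4 to 117 FPKM for PSMA7.

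Only PSMA6, PSMB5 and PSME4 passed in every one of the 6 fits that left out 1 library, and they also passed in all 9 other alternatives. PSMD5 lost its call without phosphoramidon replicate 3 (log2 fold change -0.14, adjusted p = 0.0511). PSMB6 lost it without phosphoramidon replicate 2 or 3 or untreated replicate 1 or 2 (log2 fold change -0.16 to -0.14, adjusted p = 0.0552 to 0.0664), and PSMB7 without phosphoramidon replicate 2 or 3 or untreated replicate 1 or 3 (log2 fold change -0.16 to -0.11, adjusted p = 0.0681 to 0.129). PSMC4 lost it without phosphoramidon replicate 2 or 3 or untreated replicate 1 (log2 fold change -0.19 to -0.12, adjusted p = 0.0543 to 0.0996), and PSMD7 without phosphoramidon replicate 1 or 3 or untreated replicate 1, 2 or 3 (log2 fold change -0.16 to -0.11, adjusted p = 0.062 to 0.126). Of the genes that rose, PSME1 lost its call without phosphoramidon replicate 1 or 2 or untreated replicate 2 (log2 fold change 0.14 to 0.19, adjusted p = 0.0511 to 0.0584). PSMG1 lost it without phosphoramidon replicate 1 or 2 or untreated replicate 1 (log2 fold change 0.14 to 0.17, adjusted p = 0.0631 to 0.0966), PSMD3 without phosphoramidon replicate 1 or 3 or untreated replicate 2 or 3 (log2 fold change 0.13 to 0.16, adjusted p = 0.0594 to 0.0797) and PSMD1 without phosphoramidon replicate 1, 2 or 3 or untreated replicate 1 or 2 (log2 fold change 0.11 to 0.14, adjusted p = 0.054 to 0.127). With no filter on low values, 34623 genes were tested and 8 of the 12 called members no longer passed (adjusted p = 0.0598 to 0.108), which left PSMA6, PSME4, PSMB5 and PSMD5. PSMD1 did not pass with TMM factors from all genes (0.11, adjusted p = 0.0711), and PSMG1 did not pass with voom (0.17, adjusted p = 0.0595). No called member changed sign in any of these 6 fits or of the other alternatives.

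**Figure D4:**
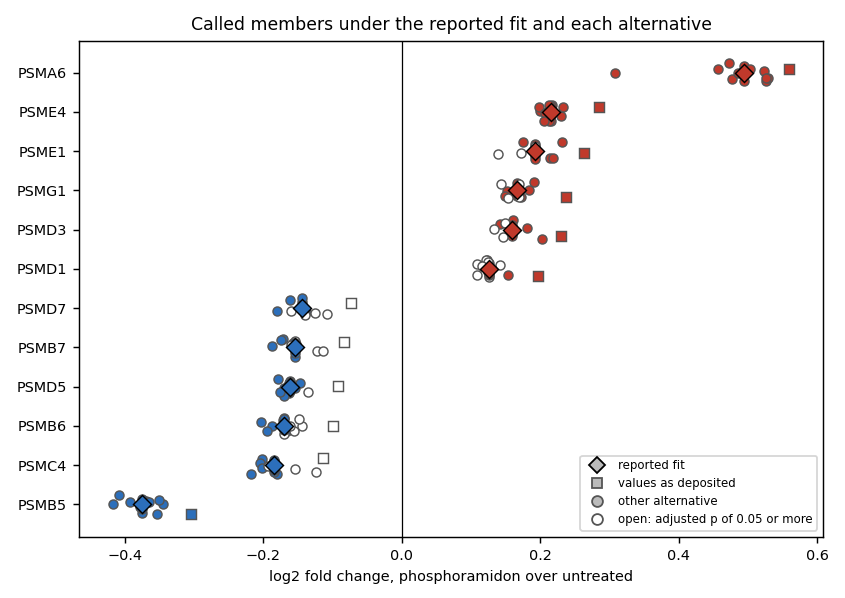
Log2 fold change of the 12 called members (horizontal axis, phosphoramidon over untreated) in the reported fit and in each alternative. Filled symbols passed at an adjusted p below 0.05 and open ones did not; PSMA6, PSME4 and PSMB5 have filled symbols only, and no symbol crosses 0.

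The immunoproteasome subunits, which replace the catalytic subunits in immune cells and under interferon, were set against the subunits they replace. PSMB9, the counterpart of PSMB6, had 2.66, 2.77 and 2.70 FPKM in phosphoramidon libraries, against 2.002, 2.17 and 1.97 FPKM in untreated libraries. It rose, with a log2 fold change of 0.32 (SE 0.07, limma adjusted p = 0.0114). PSMB8, the counterpart of PSMB5, had 6.64, 5.76 and 6.77 FPKM in phosphoramidon libraries, against 7.02, 7.18 and 7.29 FPKM in untreated libraries, and fell by 0.24 on the log2 scale (SE 0.07, limma adjusted p = 0.0275). It lost its call as deposited (-0.17, adjusted p = 0.091) and without phosphoramidon replicate 2 or untreated replicate 1, 2 or 3 (log2 fold change -0.25 to -0.16, adjusted p = 0.0549 to 0.0761). PSMB10, the counterpart of PSMB7, was at -0.29 (SE 0.11, limma adjusted p = 0.0629) and did not pass. Values of PSMB9 and PSMB10 rest on few fragments, 157 to 230 and 62 to 113 per library.

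The FPKM ratio of PSMB9 to PSMB6 was 6.51, 7.01 and 6.87% in phosphoramidon libraries, against 4.63, 4.90 and 4.85% in untreated libraries. All 3 ratios with phosphoramidon lay above those without, a log2 difference of 0.50, and a two-sided exact permutation test gave p = 0.1, which is the lowest value this number of libraries can reach (adjusted p = 0.3 over 3 ratios). The ratio of PSMB8 to PSMB5 was 11.03, 10.3 and 12.03% in phosphoramidon libraries, against 9.99, 9.56 and 10.8% in untreated libraries. Those groups overlapped (log2 difference 0.14, exact permutation p = 0.2, adjusted p = 0.3). The ratio of PSMB10 to PSMB7 was 2.82, 3.18 and 2.66% in phosphoramidon libraries, against 2.92, 3.79 and 2.95% in untreated libraries. It overlapped as well (log2 difference -0.15, exact permutation p = 0.4, adjusted p = 0.4).

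**Figure D5:**
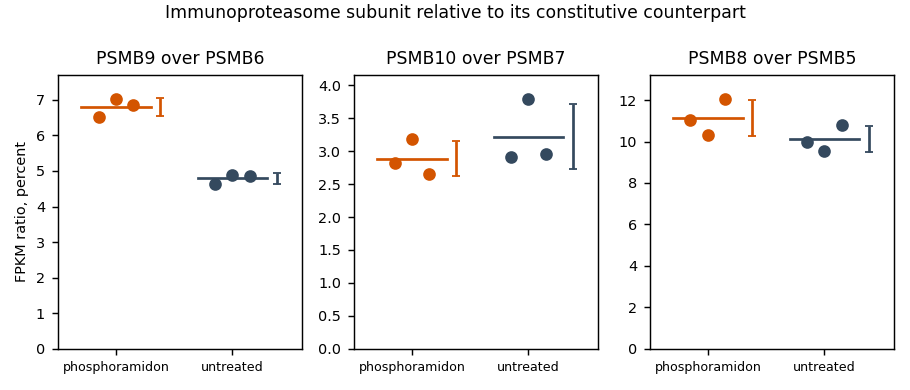
FPKM of each immunoproteasome subunit as a percentage of its constitutive counterpart (vertical axes from 0), with a point for each of the 3 phosphoramidon and 3 untreated libraries, a line at the mean and a bar for the SD. The groups are apart for PSMB9 over PSMB6, at 6.80 ± 0.257% with phosphoramidon and 4.79 ± 0.146% without, and overlap for the other ratios.

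Genes around the proteasome were read from lists, where 15.6% of all tested genes rose and 17.9% fell. Of the 4 subunits and chaperones with other symbols (ADRM1, SEM1, POMP and PAAF1), 1 fell: POMP, the chaperone that completes the core particle, had 26.7, 28.7 and 29.9 FPKM in phosphoramidon libraries, against 29.5, 33.9 and 34.8 FPKM in untreated libraries. As deposited, phosphoramidon replicate 3 lay above untreated replicate 1, and the log2 fold change was -0.27 (SE 0.06, limma adjusted p = 0.0103). Of 14 proteasome-associated genes (shuttle factors, deubiquitinases and ligases), 1 fell: AKIRIN2, which helps to import proteasomes into the nucleus, at -0.20 (SE 0.06, limma adjusted p = 0.0239). It lost its call as deposited (-0.13, adjusted p = 0.0583) and without phosphoramidon replicate 2 or 3 or untreated replicate 1 or 3 (log2 fold change -0.20 to -0.16, adjusted p = 0.0641 to 0.0725).

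Among genes for ubiquitin itself, RPS27A, which encodes ubiquitin fused to a ribosomal protein, fell. It had 89.9, 84.2 and 93.9 FPKM in phosphoramidon libraries, against 112, 125 and 118 FPKM in untreated libraries. The groups were far apart, with a log2 fold change of -0.48 (SE 0.05, limma adjusted p = 2.13e-04). UBB, a polyubiquitin gene, was at -0.06 (SE 0.05, limma adjusted p = 0.391) and did not pass.

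The list on NFE2L1 held 15 genes: the factor, its relatives, its MAF partners, and genes that make or limit its active form. Of these, 4 rose and the other 11 did not pass, where 15.6% of all tested genes rose. SEL1L, the partner of the ligase of endoplasmic reticulum degradation, had 24.8, 25.8 and 25.2 FPKM in phosphoramidon libraries, against 17.5, 18.9 and 18.1 FPKM in untreated libraries. All phosphoramidon libraries were higher, with a log2 fold change of 0.41 (SE 0.04, limma adjusted p = 1.62e-04). BTRC, a substrate receptor of a ubiquitin ligase, had a log2 fold change of 0.23 (SE 0.05, limma adjusted p = 0.00931). NGLY1, which removes sugar chains from NFE2L1, was at 0.22 (SE 0.07, limma adjusted p = 0.0346), and FBXW7, a receptor through which NFE2L1 is degraded, at 0.23 (SE 0.07, limma adjusted p = 0.0402). NGLY1 lost its call without phosphoramidon replicate 1, 2 or 3 or untreated replicate 1 or 2 (log2 fold change 0.18 to 0.24, adjusted p = 0.054 to 0.106), and FBXW7 without phosphoramidon replicate 1, 2 or 3 or untreated replicate 1 or 2 (log2 fold change 0.19 to 0.25, adjusted p = 0.0749 to 0.11). NFE2L1 itself was at 0.03 (SE 0.05, limma adjusted p = 0.669) with a 95% interval of -0.09 to 0.15, and NFE2L2, its relative of the oxidative stress response, at -0.02 (SE 0.06, limma adjusted p = 0.804), and neither passed. As deposited, 7 genes of this list were called higher, where 22.5% of all genes were. FBXW7 did not pass with TMM factors from all genes (0.22, adjusted p = 0.0513). With no filter on low values, FBXW7 and NGLY1 of this list, PSMB8, POMP and AKIRIN2 did not pass (adjusted p = 0.0535 to 0.0959).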

How the data were processed

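Expression was measured by RNA-seq in 6 libraries of HK-2 cells, 3 exposed to phosphoramidon for 24 h and 3 untreated, grouped by the treatment label. The authors deposited FPKM values per Ensembl gene, read as such from the values. The submitters' processing notes name Trimmomatic 0.38, HISAT2 2.1.0, featureCounts 1.6.0 and GRCh38 without saying what each was used for. The annotation release is not given in the sources used here, nor is the use of strand. Values times gene length were whole multiples of a step specific to each library, and the step gave assigned totals of 18690100 to 24919568 fragments. At the merged exon length of GENCODE 29, 79.2% of the 34623 genes above 0 gave whole fragments within 0.05 in all libraries, and for the others a length was searched. A single fragment on 1 kb of exon corresponded to 0.0401 to 0.0535 FPKM, which limits low values. Names came from a table that matched 37892 of 38126 IDs.

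FPKM values were divided by TMM factors (30% of M and 5% of A values trimmed, on recovered fragments of genes that passed the filter), and log2(FPKM + 0.1) was fitted with limma 3.58.1 (R 4.3.3) with a trended, robust prior and the group alone. The 16175 genes with at least 10 fragments in at least 3 libraries entered the fit, two-sided, with Benjamini-Hochberg adjustment and a threshold of 0.05. Fold changes on this scale understate those of low genes. The choice to compute factors on filtered genes was made after results with factors from all genes had been seen, and the other choice is given as an alternative. Ratios were compared by exact permutation over libraries. The procedure was tested on simulated data with the same scatter setting for every gene. Recovery was required there only for changes larger than those of the called members. The alternatives were other pseudocounts, filters and factors, voom, a replicate block and leaving out each library.

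All 6 values are given for the highest and lowest fold change of each subcomplex, all called members, the catalytic subunits, PSMD14, PSMD4 and PSMD10. For the other lists, called genes are named, up to 4 with the lowest p. Members and lists were chosen with earlier results of these data known. The 25 proteasome pseudogenes in the files held at most 0.000276% of the fragments of a library. Results of some members of the list on ubiquitin are not reported here.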

Additional observations from a re-analysis of the deposited data

How the results depend on the processing

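Across 15 alternatives no called member and no called related gene changed sign. Of the 43 tested members, 12 changed sign in some alternative, and none of these was called. Some related genes that were not called, such as UFD1 and ZFAND5, changed sign as well. In the reported fit 6 members were called higher and 6 lower, with 5 higher and 5 lower among 42 related genes. Of all tested genes, 15.6% were called higher and 17.9% lower. With no filter on low values, the counts were 2 higher and 2 lower among members and 3 higher and 2 lower among related genes. With values as deposited, 1 member was called lower, 10 related genes were called higher and 3 lower, and the members' median log2 fold change was 0.024 instead of -0.05. With values divided by the factors, the summed level of the members was 1345 FPKM in phosphoramidon libraries and 1405 FPKM in untreated libraries, instead of 1379 and 1371 FPKM. Leaving out 1 library in turn gave 2 to 5 members higher and 1 to 7 lower, 3 to 5 related genes higher and 3 to 6 lower, and a median of -0.07 to -0.03. Factors from all genes were used first, before filtered genes were chosen with those results known. They gave 5 members higher and 8 lower, without PSMD1 and, of the related genes, FBXW7. Voom on recovered fragments gave 5 higher and 9 lower, without PSMG1. Of single-gene values under alternatives, 76 no longer passed, 28 newly passed and 1169 kept their side of the threshold.

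Same-numbered libraries correlated at 0.11, -0.02 and -0.01 in their deviations from the group means over 16175 genes, so replicate numbers were not taken to pair the samples, and libraries do not each correlate best with their own number. With the replicate block, 5 members were called higher and 8 lower, and among related genes 4 higher and 8 lower. Under the block PSMD1, PSMD7 and FBXW7 did not pass (adjusted p = 0.0534 to 0.0542), and PSMB3, PSMC3 and PSMC5 passed as lower. The cause of these differences was not tested. Depth limits PSMA6, PSMA2, PSMD9 and PSMG4, which hold at most 266 fragments per library. It also limits PSMB9 and PSMB10, with at most 230 and 113.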
